A study of Homo sapiens with 60 samples.

Results

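The multi-herb formula Soyo-san and one of its constituent herbs, Menthae Herba (the aerial part of mint), were compared at the same high concentration in HT29 cells, an established human colorectal adenocarcinoma line. The comparison takes 5 of the 60 RNA-seq libraries of the series: Soyo-san at 500 µg/mL (2 libraries) and Menthae Herba at 500 µg/mL (3 libraries), chosen by their labels. Both are ethanol extracts, and all cells were harvested after 24 h. The same extracts at 100 and 20 µg/mL (2 Soyo-san and 3 Menthae Herba libraries per dose) and 3 DMSO vehicle libraries served as reference levels. For the vehicle, the labels of the samples give 0.1% DMSO and the design text of the series 2% DMSO. According to that text, an extract with an IC20 under 500 µg/mL was given at its IC20 instead, so 500 µg/mL was the ceiling for both extracts. The share of Menthae Herba in the formula, and so the amount of herb that 500 µg/mL of formula carries, is not given in the sources used here. Whether replicates were separate cultures is not stated, so p-values reflect library-to-library spread alone, and part or all of it may be technical.

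The 5 high-dose libraries held 25247714 to 29632185 expected counts each. Library names put Soyo-san in set 14 and Menthae Herba in set 12, so at any one dose the extract and the set cannot be told apart. The vehicle libraries are in another set, D1, so treatment and set cannot be told apart in any comparison with vehicle either. Replicate 2 of low-dose Saposhnikoviae Radix, another herb, differed from every other library (a best correlation with its group of 0.774 against at least 0.993 elsewhere) and was left out. All 10 colon epithelium markers were tested: CDH1 and VIL1 were higher with Soyo-san by 0.37 and 0.25 on the log2 scale, KRT20 and KRT18 lower by log2 differences of -0.28 and -0.20, and the other 6, among them EPCAM and KRT8, were not called. Of the 24 markers of fibroblasts, blood cells and hepatocytes, 9 passed the filter on low counts. None of these was called as different between the extracts. The summed level of the 3 fibroblast markers that passed was 2.16 to 2.28 CPM with Menthae Herba and 2.32 to 2.60 CPM with Soyo-san. The 3 blood cell markers that passed summed to 1455 to 1458 CPM with Menthae Herba and 1526 and 1473 CPM with Soyo-san. The 3 hepatocyte markers that passed summed to 223.2 to 234.4 CPM with Menthae Herba and 271.8 and 252.1 CPM with Soyo-san. Those that passed were COL1A1, LUM and VIM for fibroblasts, CD14, CD68 and LYZ for blood cells, and TTR, SERPINA1 and CYP2E1 for hepatocytes. ALB, PTPRC and COL3A1 were among the markers that did not pass.

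Plant extracts reach gut epithelial cells as mixtures of small molecules, and several transcription programmes of these cells respond to such molecules. The aryl hydrocarbon receptor (AHR) binds planar ligands, enters the nucleus and switches on enzymes such as CYP1A1 that oxidise them. NRF2 is a transcription factor that its partner KEAP1 keeps low until electrophiles modify KEAP1. It then raises genes for glutathione synthesis, NADPH supply and quinone detoxification. HT29 cells also carry part of the programme of goblet cells, the mucus-secreting cells of the colon, whose gel is built from mucins and mucin-binding proteins.

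Promoters are shown for 3 genes that stand for the main patterns: CYP1A1 and GCLM, common readouts of AHR and NRF2, and FCGBP, the gene with the largest difference in the list of goblet cell and mucus genes. The 250 bases before the RefSeq start site of each are printed 5′ to 3′ on the gene's strand (build GRCh38.p14), in lower case. Capitals mark matches on either strand to GCGTG, the core of an AHR site, or TGACNNNGC, the core of an antioxidant response element, the site of NRF2. No match shown overlaps another. The windows are chr15:74725529-74725778 (minus strand) for CYP1A1, chr1:93909431-93909680 (minus strand) for GCLM and chr19:39934635-39934884 (minus strand) for FCGBP.
CYP1A1: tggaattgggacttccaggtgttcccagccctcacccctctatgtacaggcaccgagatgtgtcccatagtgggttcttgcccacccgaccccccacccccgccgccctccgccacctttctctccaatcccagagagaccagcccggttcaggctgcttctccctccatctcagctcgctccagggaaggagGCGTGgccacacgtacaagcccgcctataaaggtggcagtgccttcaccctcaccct
GCLM: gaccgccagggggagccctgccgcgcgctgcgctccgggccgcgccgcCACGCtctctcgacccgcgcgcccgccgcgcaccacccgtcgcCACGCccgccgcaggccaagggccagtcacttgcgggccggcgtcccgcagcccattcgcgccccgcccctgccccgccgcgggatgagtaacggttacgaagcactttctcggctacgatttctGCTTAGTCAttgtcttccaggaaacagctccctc
FCGBP: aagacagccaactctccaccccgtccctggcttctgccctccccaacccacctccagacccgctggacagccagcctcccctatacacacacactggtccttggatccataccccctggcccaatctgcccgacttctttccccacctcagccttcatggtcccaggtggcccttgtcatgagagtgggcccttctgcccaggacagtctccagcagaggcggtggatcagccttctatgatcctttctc
The CYP1A1 window held the AHR core once, 57 bases before the start site. The GCLM window held the antioxidant core once on the opposite strand, 34 bases before the start site, and the AHR core on the opposite strand at 202 and 159 bases before it. The FCGBP window held neither. In all 35116 RefSeq promoters of that length, 10.91% held the antioxidant core and 32.22% the AHR core. Of the NRF2 targets, 17 of 24 had a promoter in the table and 5 of these held the antioxidant core, and of the AHR targets 6 of 8 had one and 4 held the AHR core. A match is a string of letters and was not tested as a binding site.

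At high dose, 933 of 16978 genes differed between the extracts (5.5% of genes tested): 561 were higher with Soyo-san (3.3%) and 372 lower (2.19%). DESeq2 split its 952 calls into 478 higher and 474 lower. Among the gene lists, 9 of 18 genes of mucus and 10 of 25 of cholesterol synthesis were higher with the formula, and 4 of 7 AHR targets and 9 of 24 NRF2 targets were lower, with 1 AHR target higher. A gene is called at an adjusted p under 0.05 (quasi-likelihood F-test of edgeR, Benjamini-Hochberg over all genes tested), and differences are log2 Soyo-san minus Menthae Herba unless another pair is named. Most differences were small: 90 of the higher genes and 2 of the lower ones reached 2-fold. The count was 334 without Soyo-san high replicate 1, 606 without Menthae Herba high replicate 2 and 569 without its replicate 3. It was 1957 when only the 15 libraries of these 2 extracts entered the fit, and 81 when the outlying library was put back.

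No gene was called between the extracts at 20 µg/mL (0% of genes tested, by edgeR and by DESeq2), where the same 2 library sets were compared, where 511 genes (3.01%) had an unadjusted p under 0.05. With no filter on low counts 78 genes were called there, 16 of them also called at high dose in the same direction. At 100 µg/mL 5 genes were called (0.0294%), and they were named after their values were seen. No gene was called higher at 100 µg/mL without Menthae Herba medium replicate 1 or 2, without Soyo-san medium replicate 1 or with the outlying library put back, and none at all in the last 2 of these fits. ALDH3A1 and AKR1B10 were lower with Soyo-san, by 0.32 and 0.28 on the log2 scale. NOX1, GLCCI1 and BTG2 were higher by 0.51, 0.35 and 0.30. Of these 5, the adjusted p of GLCCI1 at high dose was 0.0806, and the other 4 were called there in the same direction.

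To set each high-dose call against the low doses, the response of each extract from 20 to 500 µg/mL was computed within its own set, and the difference of the 2 responses was tested. That test called 186 genes (1.1%), of which 148 responded more upward in Soyo-san (0.872%) and 38 more downward (0.224%). Of the 933 high-dose calls, 180 were also called there in the same direction, which is 19.3% of the high-dose calls and 96.8% of the difference calls. The 2 comparisons share the high-dose libraries. The other 753 high-dose calls were called neither in the difference of responses nor at low dose, so for them a difference between the sets and a difference between the extracts cannot be told apart. The count of 186 was 45 without Soyo-san high replicate 1, 61 and 71 without Soyo-san low replicates 1 and 2, 96 without Menthae Herba high replicate 3 and 120 without Menthae Herba low replicate 1. With the outlying library put back it was 4, with the 15 libraries alone 394, and with no filter on low counts 400.

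From 20 to 500 µg/mL, many more genes were called with Menthae Herba (3 libraries per dose) than with the formula (2 libraries per dose). Menthae Herba had 3994 calls (23.5%), 2031 upward (12%) and 1963 downward (11.6%). Soyo-san had 422 (2.49%), 188 upward (1.11%) and 234 downward (1.38%). With 1 Menthae Herba library of these doses left out, the Menthae Herba count was 3012 to 3560. The part of the unequal library numbers in these counts was not tested. These 2 responses share no library. Of the Soyo-san calls, 351 were also called in the same direction with Menthae Herba, 83.2% of the Soyo-san calls and 8.79% of the Menthae Herba calls, and 2 went the opposite way. In 275 of the 351 the Menthae Herba change was the larger, as it was in 10614 of all 16978 genes tested. The Soyo-san count dropped to 146 when either high replicate 1 or low replicate 1 was left out, and to 160 for low replicate 2.

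**Figure D1:**
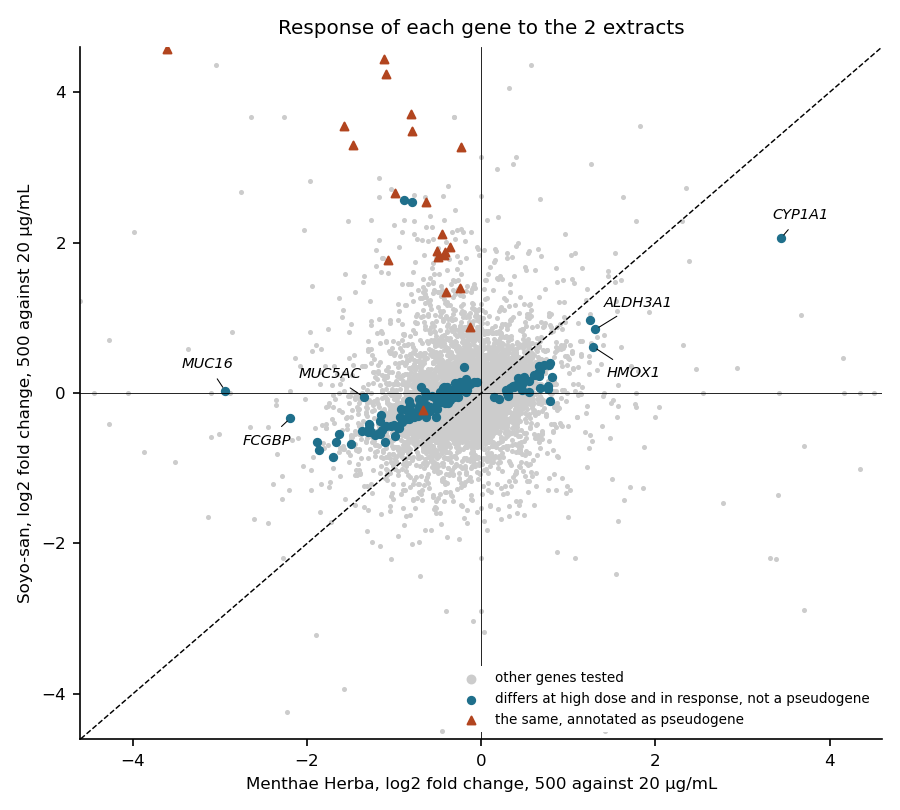
Each point is a gene, with the log2 fold change from 20 to 500 µg/mL of Menthae Herba on the horizontal axis and of Soyo-san on the vertical axis. Outside the axes lie 58 of the genes tested, 1 of them a marked gene. Genes called at high dose and in the difference of responses are blue, or orange triangles where annotated as pseudogenes. Most blue points lie between the horizontal axis and the dashed line of equal response, and most triangles lie high up on the Soyo-san axis.

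Of the 180 genes, 35 were lower with Soyo-san, and all 35 rose with Menthae Herba: 12 of them also rose with Soyo-san and 23 were not called there. Of the higher genes that are not pseudogenes, 34 fell with both extracts, 84 fell with Menthae Herba and were not called with Soyo-san, 1 fell with Menthae Herba and rose with Soyo-san, 3 rose with Soyo-san alone and 1 was called in neither. Of the 3 that rose with Soyo-san alone, ALDH1A1 did so in both libraries, at 932 and 969.9 CPM. The other two were high in Soyo-san high replicate 1 only: RPS27AP5, a pseudogene by its name, at 4.72 and 0.510 CPM, and a sense-overlapping transcript without a symbol (ENSG00000243004) at 19.3 and 2.98 CPM.

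Of the AHR targets, 7 of 8 were tested; 4 were lower with Soyo-san and 1 higher at high dose, and the median difference was -0.41 against 0.00 over all genes. CYP1A1 (chr15:74719542-74725610), which oxidises planar aromatic compounds, stood at 8.47, 7.74 and 6.38 CPM in the 3 Menthae Herba libraries and at 2.92 and 2.71 CPM in the 2 Soyo-san libraries. The groups did not overlap, as in 37.2% of all genes tested and 95.5% of the high-dose calls, and the fitted difference was -1.42 (SE 0.19, adjusted p = 1.39e-06), 2.67-fold lower with Soyo-san. At 20 µg/mL both extracts left CYP1A1 near the vehicle mean of 0.664 CPM, with 0.668 ± 0.203 (SD, n = 2) for Soyo-san and 0.685 ± 0.141 (n = 3) for Menthae Herba. Its rise from low to high dose was 4.17-fold with Soyo-san and 10.9-fold with Menthae Herba, and the 2 rises differed (adjusted p = 0.0447).

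The other AHR targets moved less. ALDH3A1, an aldehyde dehydrogenase, was at 67.6, 67.5 and 69.1 CPM with Menthae Herba and at 44.3 and 46.6 CPM with Soyo-san, a difference of -0.58 (SE 0.05, adjusted p = 6.13e-12) that was also called in the response (adjusted p = 4.62e-05). CYP1B1, a relative of CYP1A1, was at 82.7 to 90.5 CPM against 64.3 CPM in both Soyo-san libraries (-0.43, SE 0.05). TIPARP, which feeds back on AHR, was at 133 to 157 CPM against 106 and 108 CPM (-0.41, SE 0.07). All 4 of these genes were called in the difference of responses as well. UGT1A6, a glucuronidation enzyme whose exons are partly shared with other UGT1A genes, went the other way, with 66.9 and 64.6 CPM in Soyo-san above 54.2 to 56.8 CPM in Menthae Herba (0.25, SE 0.07, adjusted p = 0.0188), but lost its call without either Soyo-san library or without Menthae Herba replicate 2 or 3. NQO1, which both AHR and NRF2 raise, was at 711 to 750.1 CPM with Menthae Herba and at 667 and 683 CPM with Soyo-san (adjusted p = 0.0734). AHRR, also an AHR target, fell from low to high dose with Menthae Herba (-0.27 on the log2 scale, adjusted p = 0.0442). Its change with Soyo-san was -0.03 and was not called. At high dose AHRR was at 5.77 to 6.19 CPM with Menthae Herba and 6.32 and 6.55 CPM with Soyo-san (adjusted p = 0.714).

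**Figure D2:**
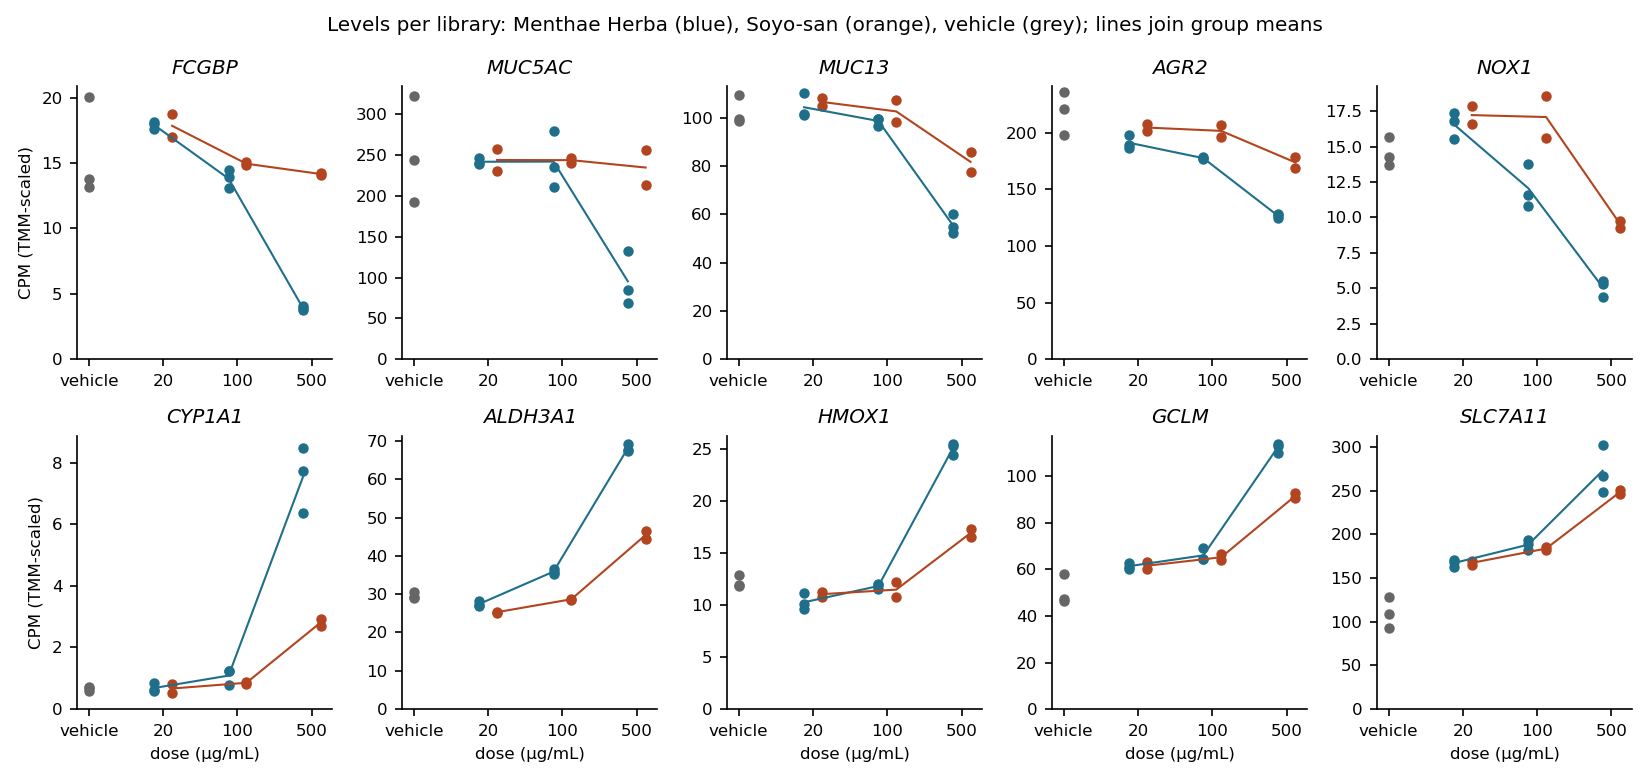
CPM per library (points) for 10 genes in vehicle and at 20, 100 and 500 µg/mL of Menthae Herba (blue) and Soyo-san (orange), with lines joining group means; each vertical axis starts at 0. At 500 µg/mL the mucus genes and NOX1 were lower with Menthae Herba than with Soyo-san, and CYP1A1, ALDH3A1, HMOX1 and GCLM were higher, while the SLC7A11 libraries of the 2 extracts overlapped.

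All 24 NRF2 targets were tested: 9 were lower with Soyo-san and none higher, with a median difference of -0.13. Of the 24, 4 had a difference above 0, and 2 were called in the difference of responses. Both extracts raised this list from low to high dose, Soyo-san 18 of 24 and Menthae Herba 22 of 24, by medians of 0.40 and 0.57 on the log2 scale. GSR, among the 9 lower genes, had the same difference of -0.13 at low dose, where it was not called. Its response was 0.39 with both extracts. AKR1C2 and AKR1C3 also rose alike with both, by 0.87 and 0.82, and AKR1C1 by 0.61 with Soyo-san and 0.54 with Menthae Herba. None of these AKR1C genes was called between the extracts at high dose. HMOX1, haem oxygenase, stood at 25.3, 25.5 and 24.4 CPM with Menthae Herba and at 17.3 and 16.6 CPM with Soyo-san (-0.57, SE 0.08, adjusted p = 1.69e-06). HMOX1 had been at 9.62 to 11.1 CPM in the low-dose Menthae Herba libraries and 10.8 and 11.3 CPM in the low-dose Soyo-san libraries, and its rise differed between the extracts (adjusted p = 0.000745). AKR1B10, an aldo-keto reductase, was at 249.7, 255 and 278 CPM against 199.7 and 206 CPM (-0.36, SE 0.05, adjusted p = 3.94e-06; in the response adjusted p = 0.0499).

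Genes of glutathione synthesis followed. GCLC and GCLM encode the 2 subunits of glutamate-cysteine ligase, the first step of glutathione synthesis. GCLC was at 149 to 161 CPM with Menthae Herba and 126 and 131 CPM with Soyo-san (-0.26, SE 0.05, adjusted p = 0.000661). GCLM was at 113, 110.2 and 114 CPM and at 90.7 and 92.7 CPM (-0.29, SE 0.07, adjusted p = 0.00678). The difference of the GCLM responses did not pass (adjusted p = 0.19), nor did that of GCLC (adjusted p = 0.325). FTH1, the ferritin heavy chain, was at 5345 to 5867 CPM against 4467 and 4494 CPM (-0.32, SE 0.07), and many pseudogene copies of it can take its reads. OSGIN1, an oxidative stress gene, was at 26.7 to 27.9 CPM against 21.2 and 22 CPM (-0.34, SE 0.08). The differences of the FTH1 and OSGIN1 responses did not pass either (adjusted p = 0.208 and 0.256). SLC7A11, the cystine importer that feeds glutathione synthesis, was named after its values were seen: its libraries overlapped at 249 to 303 CPM and 246 and 251 CPM, and the 95% interval of its difference, -0.38 to 0.12, leaves room for a difference of the size seen for GCLM. Without Soyo-san high replicate 1 the list had 4 lower genes and without its replicate 2 it had 6, and GCLM and OSGIN1 lost their calls without replicate 1. With the outlying library put back, 1 NRF2 target and 2 AHR targets were called, all lower, and with the 15 libraries alone 14 NRF2 targets were lower.

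Mucus genes had the largest median difference among the lists. Of 20 genes of goblet cells and mucus 18 were tested, 9 were higher with Soyo-san and none lower, and the median difference was 0.52. From low to high dose 13 of 18 fell with Menthae Herba (median -0.79) and 4 of 18 with Soyo-san (median -0.21), none rose with either, and 6 were called in the difference of responses. FCGBP (chr19:39863323-39934626), which binds the mucin network, stood at 4.07, 3.94 and 3.75 CPM with Menthae Herba and at 14.1 and 14.2 CPM with Soyo-san. The Soyo-san libraries were thus still near the vehicle level of 15.7 ± 3.82 CPM (SD, n = 3), and those of the herb lay well below it. The difference was 3.61-fold (1.85, SE 0.17, adjusted p = 4.58e-10) and was -0.0040 at low dose.

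The gel-forming mucins showed the same order. MUC5AC, a secreted mucin of the stomach that HT29 cells also make, stood at 133, 84.7 and 68.8 CPM with Menthae Herba and at 256 and 214 CPM with Soyo-san (2.47-fold, SE 0.22 on the log2 scale, adjusted p = 8.48e-05). It was at 239 to 246 CPM in the low-dose Menthae Herba libraries and at 231 and 257 CPM in those of Soyo-san. MUC2, the main mucin of the colon, stood at 7.98, 5.15 and 5.77 CPM against 16.5 and 14.4 CPM (1.31, SE 0.27, adjusted p = 0.000982), but the difference of its responses did not pass (adjusted p = 0.0738). The SD of MUC5AC was 33.3 CPM over the herb's 3 libraries and 29.9 CPM over the 2 of the formula. MUC13, a membrane mucin, was at 52.2 to 60.0 CPM with Menthae Herba and at 85.8 and 77.8 CPM with Soyo-san (0.56, SE 0.06, adjusted p = 1.15e-08).

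Secretory genes of the same cells moved alike. AGR2, a disulfide isomerase needed for mucin folding, was at 124 to 129 CPM with Menthae Herba and at 179 and 169 CPM with Soyo-san (0.45, SE 0.06). REG4, a lectin of secretory epithelial cells, was at 8.84 to 10.1 CPM and at 16.5 and 14.0 CPM (0.67, SE 0.09). Both were called in the difference of responses. ATOH1, the transcription factor that starts secretory fate, was named after its values were seen because its level was low: it was at 0.855, 1.21 and 1.41 CPM with Menthae Herba and 3.28 and 2.75 CPM with Soyo-san, against 3.91 CPM in vehicle (1.36, SE 0.19, adjusted p = 1.98e-06; in the response adjusted p = 0.00208). Without Soyo-san high replicate 1, 8 of the 18 genes were higher, with the outlying library put back 5, and with the trend of transcript length described below removed 10.

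By their list medians, crypt and brush border genes differed less. Of 17 WNT and crypt genes 13 were tested, 5 were higher with Soyo-san and none lower (median 0.27), and from low to high dose 9 fell with Menthae Herba and 1 with Soyo-san. EPHB3, a receptor that positions crypt cells, was at 12.8 to 13.9 CPM with Menthae Herba and 19.6 and 20.2 CPM with Soyo-san (0.57, SE 0.09, adjusted p = 9.93e-06). CD44, a hyaluronan receptor and WNT target, was at 465, 421 and 400.0 CPM and at 562 and 512 CPM (0.33, SE 0.05, adjusted p = 3.74e-06). Both were called in the difference of responses, and both groups of libraries stayed apart. NOTUM, another gene of the WNT and crypt list, had a larger difference, 1.25 to 1.79 over the fits that each left out 1 high-dose library. Without Soyo-san high replicate 1 the list had 3 higher genes, since AXIN2 and EPHB2 lost their calls. Of 22 enterocyte and brush border genes 13 were tested, with VIL1 and DPP4 higher and KRT20 lower. VIL1, the actin-bundling protein villin, was at 109.7 to 117 CPM against 132 and 140.2 CPM (0.25, SE 0.04), and DPP4, a brush border peptidase, at 19.6 to 22.9 CPM against 30.2 and 30.4 CPM (0.51, SE 0.08).

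**Figure D3:**
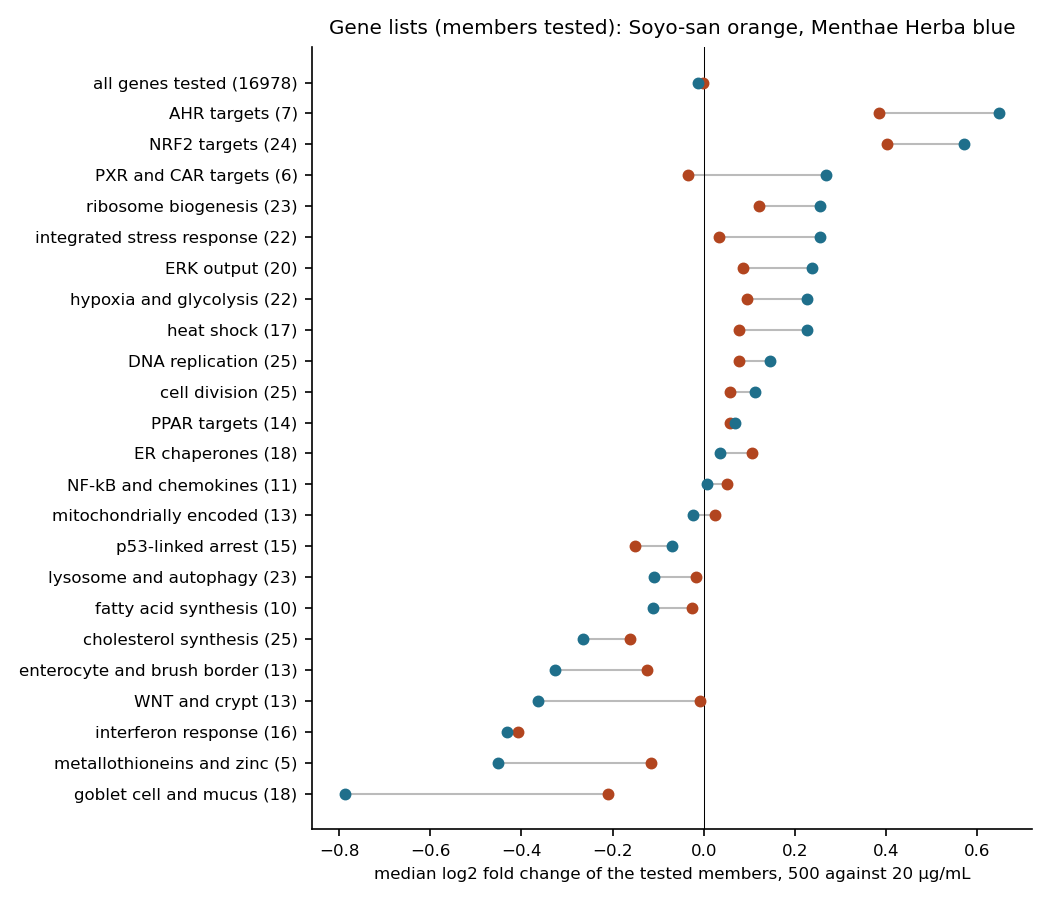
Each row is a gene list (number of members tested), and the points are the median log2 fold change of its members from 20 to 500 µg/mL in Soyo-san (orange) and Menthae Herba (blue). Medians of AHR and NRF2 targets are above 0 with both extracts and further out with Menthae Herba, and the goblet cell median is -0.79 with the herb and -0.21 with the formula.

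Genes of cholesterol synthesis stood higher with the formula than with the herb. All 25 genes were tested; 10 were higher with Soyo-san and none lower (median 0.16), and from low to high dose 22 fell with Menthae Herba and 7 with Soyo-san. INSIG1, a sterol sensor that holds SREBP back, was at 81.3, 82.3 and 82.6 CPM with Menthae Herba and at 111 and 110.1 CPM with Soyo-san (0.43, SE 0.05, adjusted p = 2.18e-08), and its responses differed (adjusted p = 0.00637). HMGCS1, a synthase early in the pathway, was at 132 to 137 CPM against 164 and 165 CPM (0.28, SE 0.05). The difference of the HMGCS1 responses did not pass the threshold (adjusted p = 0.0572). SCD, the fatty acid desaturase under the same regulator, was at 919 to 980.4 CPM against 1322 and 1235 CPM (0.42, SE 0.05, adjusted p = 1.15e-08; in the response adjusted p = 0.000782). It was the one gene of 10 in fatty acid synthesis that was called. The cholesterol count was 6 without Soyo-san high replicate 1 and 1 with the outlying library put back.

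Of 22 tested genes of the integrated stress response, 6 were lower and none higher (median -0.13), and Menthae Herba raised 13 of them and Soyo-san 3. ATF4, the transcription factor of that response, was at 302 to 321 CPM with Menthae Herba and at 254 and 252 CPM with Soyo-san (-0.29, SE 0.06; in the response adjusted p = 0.0499). GDF15, a secreted stress cytokine, was at 59.6 to 73.0 CPM against 48.5 and 46.2 CPM (-0.49, SE 0.09, adjusted p = 0.000267). The difference of the GDF15 responses did not pass (adjusted p = 0.165). In the vehicle libraries GDF15 was at 55.9 to 61.9 CPM and ATF4 at 261 to 318 CPM, which overlaps the high-dose Menthae Herba libraries of both genes. The Soyo-san libraries of ATF4 lay between its 2 low-dose libraries, at 246 and 262 CPM. The list had 2 lower genes without Soyo-san high replicate 1, and ASNS and DDIT3 were among those that lost their call. Of 17 heat shock genes Menthae Herba raised 13 and Soyo-san none, and 2 were lower with Soyo-san at high dose, HSPA8 and STIP1, of which STIP1 lost its call without any 1 of the 5 libraries. Of the 13 genes that Menthae Herba raised from low to high dose, 6 were below the vehicle mean at high dose. HSPA8, a constitutive chaperone, was at 2807 to 2936 CPM against 2475 and 2494 CPM (-0.21, SE 0.04), with a vehicle mean of 3102 CPM and a low-dose Menthae Herba mean of 2393 CPM.

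Of 20 genes read out from ERK signalling, 7 were lower with Soyo-san and none higher (median -0.18), and none was called in the difference of responses. FOSL1, an AP-1 subunit, was at 55.3 to 64.1 CPM with Menthae Herba and at 40.8 and 35.9 CPM with Soyo-san (-0.63, SE 0.10, adjusted p = 1.24e-05). EREG, a ligand of the EGF receptor, was at 101 to 119.7 CPM against 83.2 and 82.7 CPM (-0.42, SE 0.08). EREG was also lower by a log2 difference of -0.22 at low dose, where it was not called. The list had 4 lower genes without Soyo-san high replicate 1.

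All 23 ribosome biogenesis genes had negative differences, 10 of them called (median -0.14), and Menthae Herba raised 21 of 23 and Soyo-san 1. RRP9, a component of the U3 snoRNP, was at 57.2 to 59.2 CPM against 43.7 and 50.3 CPM (-0.31, SE 0.06, adjusted p = 0.000996). No gene of this list was called without Soyo-san high replicate 1, 2 were without replicate 2, and 4 with the length trend removed. Of 22 genes of hypoxia and glycolysis, 5 were lower and 1, CA9, was higher. HK2, the hexokinase that starts glycolysis, was at 92.4 to 96.9 CPM against 77.8 and 76.9 CPM (-0.30, SE 0.05, adjusted p = 1.65e-05) and differed in response (adjusted p = 0.0206). The lower count of this list was 2 without Soyo-san high replicate 1 and 3 without replicate 2. In cell division and DNA replication, 2 of 25 genes each were lower with Soyo-san, and none of them without either Soyo-san library. None of the 13 mitochondrially encoded genes was called.

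Outside the lists described so far, the largest negative differences among genes called in both tests, and with at least 5 CPM, included ALDH1A3 and AQP3. ALDH1A3, which makes retinoic acid, stood at 48.2, 44.4 and 42.9 CPM with Menthae Herba and at 27.4 and 28.2 CPM with Soyo-san (-0.70, SE 0.07, adjusted p = 1.17e-09). Its Soyo-san libraries were near the 26.7 CPM of the low dose. AQP3, a channel for water and glycerol, was at 157 to 158 CPM in 2 Menthae Herba libraries and 151 CPM in the other, and at 106 and 95.9 CPM with Soyo-san (-0.62, SE 0.05, adjusted p = 1.32e-11). ANXA10, an annexin of gastric-type epithelium, was at 93.7 to 97.4 CPM against 63.9 and 66.5 CPM (-0.56, SE 0.06). CXCL8, the neutrophil chemokine interleukin-8, was at 10.1 to 11.5 CPM against 7.32 and 7.65 CPM (-0.52, SE 0.10, adjusted p = 0.000506). The same rule named RHOF, ADGRF1, IGFBP6 and TRIM31, with differences from -0.48 to -0.41. Of these, IGFBP6 lost its call without Soyo-san high replicate 1.

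Among the 12 largest positive differences by the same rule, 8 were pseudogenes, treated below. Besides FCGBP and MUC5AC the list held LINC00261 and MGAM2. LINC00261, a long noncoding RNA next to FOXA2, stood at 3.54, 4.63 and 4.25 CPM with Menthae Herba and at 8.48 and 9.22 CPM with Soyo-san (1.09, SE 0.10, adjusted p = 4.58e-10), and both extracts lowered it from a mean of 14.9 CPM (Soyo-san) or 15.1 CPM (Menthae Herba) at low dose. MGAM2, a relative of the brush border maltase, was at 16.1 to 21.3 CPM against 40.1 and 33.7 CPM (0.96, SE 0.14).

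With pseudogenes left out, a list made after the values were seen, the next genes were NOX1, SLC38A11, FRAS1, PRLR, FILIP1L, FAT1, HSPG2 and LRP1. NOX1, the superoxide-producing oxidase of colon epithelium, was at 5.54, 5.32 and 4.40 CPM with Menthae Herba and at 9.28 and 9.73 CPM with Soyo-san (0.90, SE 0.11, adjusted p = 1.84e-07). At 100 µg/mL its adjusted p was 0.0120, a call lost in the fits in which no gene was called higher and with the 15 libraries alone (adjusted p = 0.17). FAT1, a giant protocadherin, was at 774, 584 and 493 CPM against 1041 and 1053 CPM (0.76, SE 0.13). FRAS1, an extracellular matrix protein, was at 77.6, 60.7 and 54.2 CPM against 119.9 and 115 CPM (0.88, SE 0.12). In FAT1, FRAS1, HSPG2, LRP1 and MUC5AC the Menthae Herba library with the lowest level was replicate 3 and the highest replicate 1. The longest annotated transcripts of these 5 genes run from 14327 to 17448 bases. PRLR, SLC38A11 and NOX1, with longest transcripts of 11688, 3737 and 2529 bases, had the same order, and FILIP1L, with 4219 bases, did not.

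**Figure D4:**
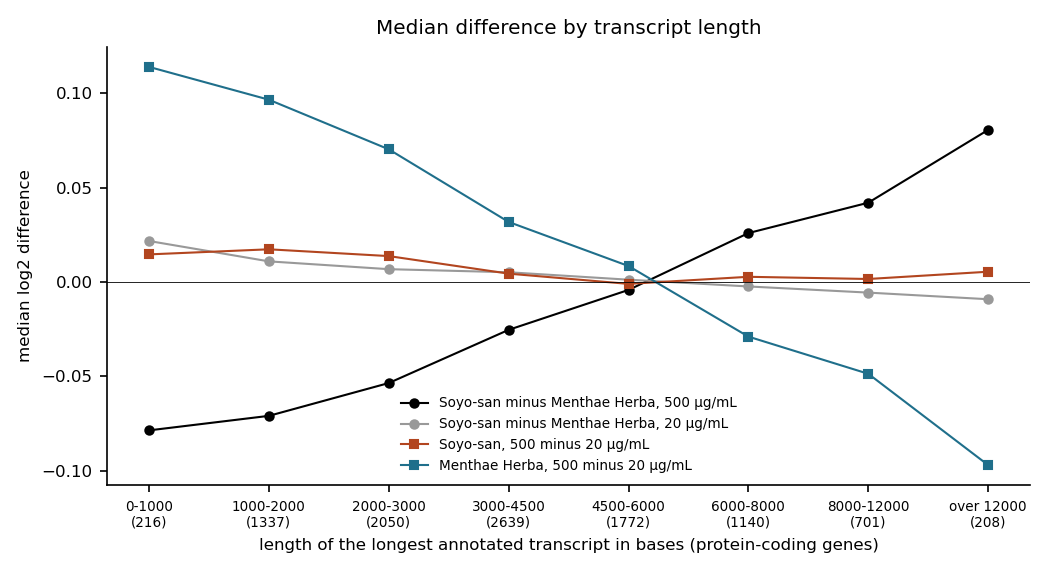
Median log2 difference of protein-coding genes with at least 5 CPM in vehicle, by the length of the longest annotated transcript (number of genes in brackets). The high-dose difference runs from -0.08 for transcripts up to 1000 bases to 0.08 above 12000 bases, the Menthae Herba response runs the other way, and the Soyo-san response and the low-dose difference stay near 0.

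The differences moved with transcript length. In protein-coding genes of at least 5 CPM in vehicle, the median high-dose difference was -0.08 in the 216 genes with transcripts up to 1000 bases and 0.08 in the 208 genes above 12000 bases. The same medians were 0.11 and -0.10 for the Menthae Herba response, 0.01 and 0.01 for the Soyo-san response, and 0.02 and -0.01 for the low-dose difference. When a trend on length was removed from every library, a fit added after the data were seen, 947 genes were called at high dose, 659 higher and 288 lower, and the Menthae Herba response had 1566 genes upward and 2273 downward. The part of transcript length in single genes was not tested.

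The share of pseudogenes called at high dose, 6.05%, was close to the 5.46% of other genes. Of the 1108 pseudogenes tested 65 were higher with Soyo-san and 2 lower, and 58 of the 90 genes that were at least 2-fold higher were pseudogenes. In all 58 the level in Soyo-san high replicate 1 exceeded that in replicate 2, and in 63 of the 65 it exceeded all 4 other high-dose libraries, as it did in 48.5% of all pseudogenes tested and 21.6% of other genes. In 25 of the 65 replicate 2 also exceeded all 3 Menthae Herba libraries. EEF1A1P6, a processed copy of a translation elongation factor gene, stood at 58.2 and 9.89 CPM in the 2 Soyo-san libraries and at 9.08, 7.60 and 10.5 CPM with Menthae Herba. FTH1P20, a ferritin copy, stood at 11.6 and 0.275 CPM and at 0.288 to 0.553 CPM. RPLP0P6, a ribosomal protein copy, stood at 41.2 and 9.46 CPM and at 9.21 to 9.78 CPM. Of the 8 pseudogenes among the 12 largest differences (those 3 and RPS27P4, MTCO3P12, FTH1P8, RPS3AP26 and RPL10P16) none was called without Soyo-san high replicate 1. Processed pseudogenes took 0.326% of the counts of that library, the second highest of the 60. Reads that match several near-identical copies are shared out by RSEM, and these levels are uncertain for that reason.

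**Figure D5:**
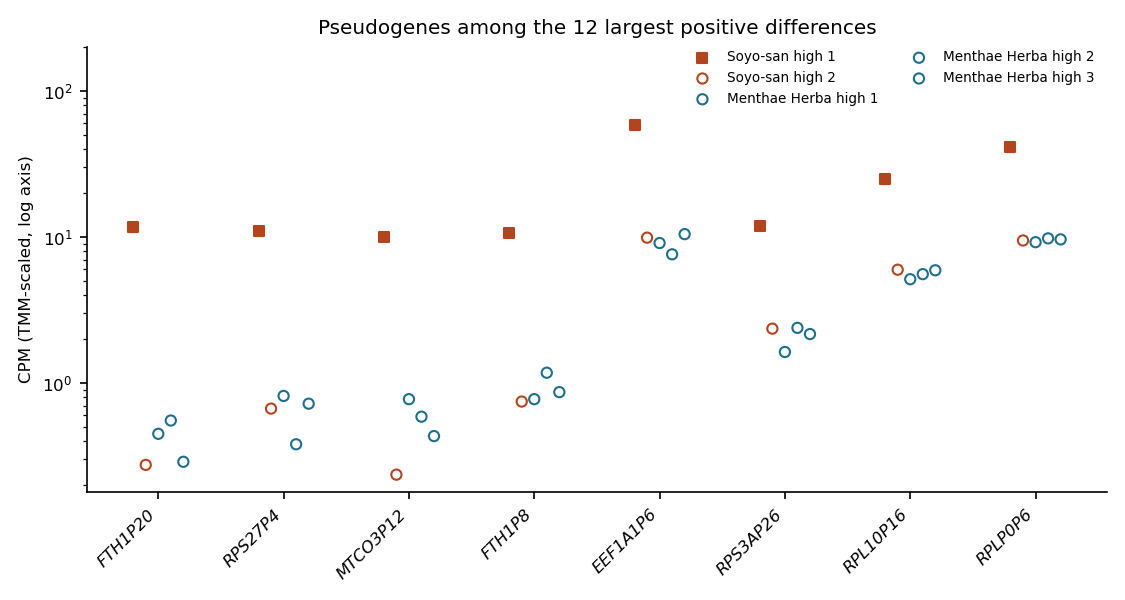
CPM on a log axis of the 8 pseudogenes among the 12 largest positive differences, in each of the 5 high-dose libraries. The filled square, Soyo-san high replicate 1, lies above the other 4 libraries for every gene, and Soyo-san high replicate 2 lies among or below those of Menthae Herba or just above them.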

How the data were processed

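RNA-seq libraries of HT29 cells were made with a directional MGIEasy kit and read as 100 bp pairs, per the labels' protocols. The authors deposited expected counts per gene. The submitters' processing notes name RSEM 1.3.3, STAR 2.7.3a, Trim Galore 0.6.5 and FastQC 0.11.9 as tools, and GRCh38 (hg38) as the build. Neither the annotation nor the strand setting is given in the sources used here, so a gene and its antisense partner cannot be told apart. Of the values, 10.0% were not whole, and all were rounded. The 15 libraries of the 2 extracts held 18844932 to 29632185 counts. Of 60675 genes 56558 had a symbol, and gene coordinates are from GENCODE 29 (GRCh38, 1-based). Promoter sequences are from RefSeq.

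The test was that of edgeR 4.0.16 under R 4.3.3 (TMM, filterByExpr by group, two-sided quasi-likelihood F-test, Benjamini-Hochberg over 16978 genes) in 1 fit of 56 libraries in 22 groups with 34 residual degrees of freedom. Levels are TMM-scaled CPM computed from the rounded counts, and an SE is the absolute log2 fold change over the square root of F. The procedure was tested on simulated counts. Named genes had a symbol and a mean of at least 5 CPM in the high-dose libraries of an extract. They were the 12 largest higher and 12 largest lower among genes called both at high dose and in the difference of responses, and at most 6 members per list, called ones first; genes named after their values were seen are marked so, and some genes that the rule names are not reported here. No gene qualified as called at both doses and not in the difference. The comparison, the members and the lists were chosen with earlier results of these data known. Lists overlap: NQO1 and SLC7A11, for example, stand in 2 lists each. Alternatives were DESeq2 1.42.0 (test and size factors), no filter on low counts, the 15 libraries alone, 57 libraries with the outlying one, replicate blocks, each library left out, and, added after the data were seen, a length trend removed and pseudogenes left out.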

Additional observations from a re-analysis of the deposited data

Results flagged for a closer look

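The response from 20 to 500 µg/mL differed between Soyo-san and Menthae Herba in 186 genes by the test of the difference of responses (edgeR, adjusted p under 0.05), and 148 of these had the more positive response in Soyo-san. FCGBP and LINC00261 had the more positive response in Soyo-san and AQP3 the more negative one, each at an adjusted p of 8.24e-07.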

How the results depend on the processing

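Counts are of genes called, in the order high-dose difference, medium-dose difference, difference of responses, Soyo-san response, Menthae Herba response, and high-dose calls shared with the difference of responses (933, 5, 186, 422, 3994 and 180 as reported). The 15 libraries alone gave 1957 (859 higher, 1098 lower), 2, 394, 697 and 384 (the Menthae Herba response stayed within 1.5 times). With the outlying library put back, as 57 libraries, they were 81, 0, 4, 12, 899 and 4. With no filter on low counts, 78 genes were called at low dose, 85 at medium dose and 400 in the difference of responses, 336 calls were shared with that difference and 16 with the low dose. Leaving out each library in turn gave 334 to 845, 0 to 3, 45 to 233, 146 to 375, 3012 to 3560 and 44 to 227. Among single genes 4 pseudogenes reversed without Soyo-san high replicate 1: over the libraries left out, FTH1P20 ran from -0.64 to 4.74, MTCO3P12 from -1.32 to 4.05, FTH1P8 from -0.34 to 3.48 and RPLP0P6 from -0.018 to 2.11 on the log2 scale. Replicate numbers do not pair the samples by the labels, and same-numbered libraries of the 2 extracts deviated together weakly (correlation 0.28 and 0.23 at high dose, 0.02 and 0.01 at low dose). Deviations were taken from group means, so those of the 2 Soyo-san libraries at a dose mirror each other. The 2 correlations at a dose are thus not independent. Each high-dose Menthae Herba library correlated best with the low-dose library of its own number, at 0.06, 0.07 and 0.11. With the replicate number as a block the counts were 1054, 5, 223, 469, 4157 and 215, with 0 at low dose. A replicate block of set and number together was fitted on the 15 libraries alone, where it gave 536 for the difference of responses and 869 for the Soyo-san response, against 394 and 697 for those libraries with no block. DESeq2 split the high-dose calls into 478 higher and 474 lower and those of the Soyo-san response into 222 and 185, and removing the length trend gave 1566 higher and 2273 lower in the Menthae Herba response. Of 182 genes of the lists and the named rule 113 were called at high dose. Of these, 83 lost the call with 57 libraries, and 38 lost it and a further 4 turned without Soyo-san high replicate 1. The cause of these shifts was not tested. List members that did not pass the filter on low counts, such as ALB and COL3A1, could not be compared at this depth.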

Other observations

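Of 16 interferon response genes, all tested, 6 fell with Soyo-san and 10 with Menthae Herba from 20 to 500 µg/mL, and none rose. The medians over the 16 were -0.41 and -0.43 on the log2 scale. None was called between the extracts at high dose, although the median difference there was 0.18, and the median difference at low dose was 0.15. IFIT1, an RNA sensor, stood at 5.09 and 5.04 CPM in the low-dose Soyo-san libraries and at 2.76 and 2.75 CPM at high dose. With Menthae Herba IFIT1 stood at 3.77 to 4.78 CPM and at 2.24 to 2.73 CPM. IRF9, a subunit of the interferon-activated factor, fell with both extracts, by -0.77 and -0.67 on the log2 scale. None of the 16 was called in the difference of responses.

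Lysosomal genes moved in both directions. LAMP1, a protein of the lysosomal membrane, was at 317 to 331 CPM with Menthae Herba and at 400.0 and 381 CPM with Soyo-san (0.26, SE 0.04, adjusted p = 1.89e-05). SQSTM1, the autophagy receptor p62, went the other way, with 497 to 501 CPM against 386 and 395 CPM (-0.36, SE 0.05). Both were called in the difference of responses. Of the 23 genes of lysosome and autophagy tested, 4 were higher with Soyo-san and 2 lower, with 3 and 1 called without Soyo-san high replicate 1.

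BTG2, an antiproliferative gene, was at 16.7 to 17.9 CPM with Menthae Herba and at 27.5 and 26.2 CPM with Soyo-san (0.63, SE 0.06, adjusted p = 2.06e-09), and fell with both extracts from low to high dose. Of the 15 genes of p53-linked arrest, 2 were higher and 1 lower at high dose. ALDH1A1, a retinal dehydrogenase named after its values were seen, rose with Soyo-san (adjusted p = 0.0343) and did not pass the test with Menthae Herba (adjusted p = 0.266): it stood at 932 and 969.9 CPM against 779.7, 791 and 811 CPM at high dose (0.26, SE 0.04), and its responses differed (adjusted p = 0.0428).

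In the remaining lists counts at high dose stand beside 5.5% called over all genes tested. Of 18 ER chaperones 5 were called (27.8%): 2 were higher with Soyo-san, CANX and SEL1L, and 3 lower, HERPUD1, XBP1 and DNAJB9. CANX, a lectin chaperone of the endoplasmic reticulum, had a difference of 0.20 (SE 0.04) and was the one of these 5 called in the difference of responses (adjusted p = 0.0339). Of 14 tested PPAR targets 1 was higher with Soyo-san and none lower. Of 11 tested genes of NF-kB and chemokines CXCL8 alone was called. Of 5 tested genes of metallothioneins and zinc, the zinc exporter SLC30A1 was higher (0.26, SE 0.07, adjusted p = 0.0271), a call lost without either Soyo-san library. None of the 6 tested PXR and CAR targets was called.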
